A study of Mus musculus with 21 samples.

Results

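The genes described here are Myc and the nucleolar factors that make ribosomes, 36 genes chosen by name. Of the 36, 34 have a row of their own among the 22180 genes tested on the array. Fbl, the methyltransferase of box C/D particles, shares its only row with Tulp4, and Tsr1, a maturation factor of the small subunit, shares its only row with Srr, so neither has a value of its own. RNA came from cells of the corpus, the acid- and enzyme-secreting body of the mouse stomach, sorted by flow cytometry on a green fluorescent reporter of Lgr5, a receptor for the Wnt-enhancing R-spondins. The 3 sorted populations were Lgr5GFP high, Lgr5GFP low and Lgr5GFP negative, and every group holds cells of reporter mice. Tamoxifen groups came from mice injected with 0.27 mg of the drug per g of body weight 24 hours before isolation, which the labels call injured. Control groups came from uninjected mice. Each population has 4 tamoxifen arrays and 3 control arrays, 21 arrays in all, named below by treatment, population and replicate number (tamoxifen high 1). The labels give no strain, age or number of mice per sort and no vehicle group. Between treatments, tamoxifen, the act of injection and the sorting run, read here from the number in each sample title, cannot be told apart. The labels call the arrays of a group technical replicates of separate sorts, so p-values measure the spread between sorts, which may be technical.

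Ribosome production starts when RNA polymerase I copies the ribosomal DNA into a long precursor RNA. Small nucleolar ribonucleoproteins modify that precursor, and the small subunit processome and the large subunit assembly factors fold, cut and pack it with ribosomal proteins. Myc is a transcription factor that binds E-boxes (CACGTG) together with Max, and genes of ribosome production are among its best-known targets. Chief cells, which secrete pepsinogen, are known to lose secretory features and re-enter the cell cycle after injury of the corpus.

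Levels are log2 signals as the authors deposited them, and a difference of 1 is a 2-fold change. As a guide to background, the 1105 olfactory receptor genes lay at a median of 2.52, with a 95th percentile at 4.16, and all 34 genes had a mean above that percentile in every group. Lgr5, which checks the sort, averaged 8.79 (SD 0.38, n = 3) in high, 7.56 (SD 0.13) in low and 4.41 (SD 0.39) in negative cells of control mice, and 8.43 (SD 0.29, n = 4), 6.70 (SD 0.24) and 4.59 (SD 0.16) in the same order after tamoxifen. The chief cell gene Cblif, which encodes intrinsic factor, was at 12.64 (SD 0.16) in control high and 10.98 (SD 0.34) in control negative cells, and Pgc, pepsinogen C, lay near the top of the scale in all groups. Arrays of a group correlated with r from 0.944 to 0.991. The array tamoxifen high 1 stood apart in markers of tuft cells, the chemosensory cells of the epithelium: the mean of 8 markers was 7.87 there and 9.55, 10.45 and 10.64 on tamoxifen high 2, 3 and 4. The array control low 3 had a mean of 7.15 over 10 genes of G2 and M phase, against 4.72 and 5.25 on control low 1 and 2. For tamoxifen against control in high and low cells, counts of calls and medians of the 34 genes are given with and without these arrays. Medians of the other comparisons that use them are given with all arrays only.

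**Figure D1:**
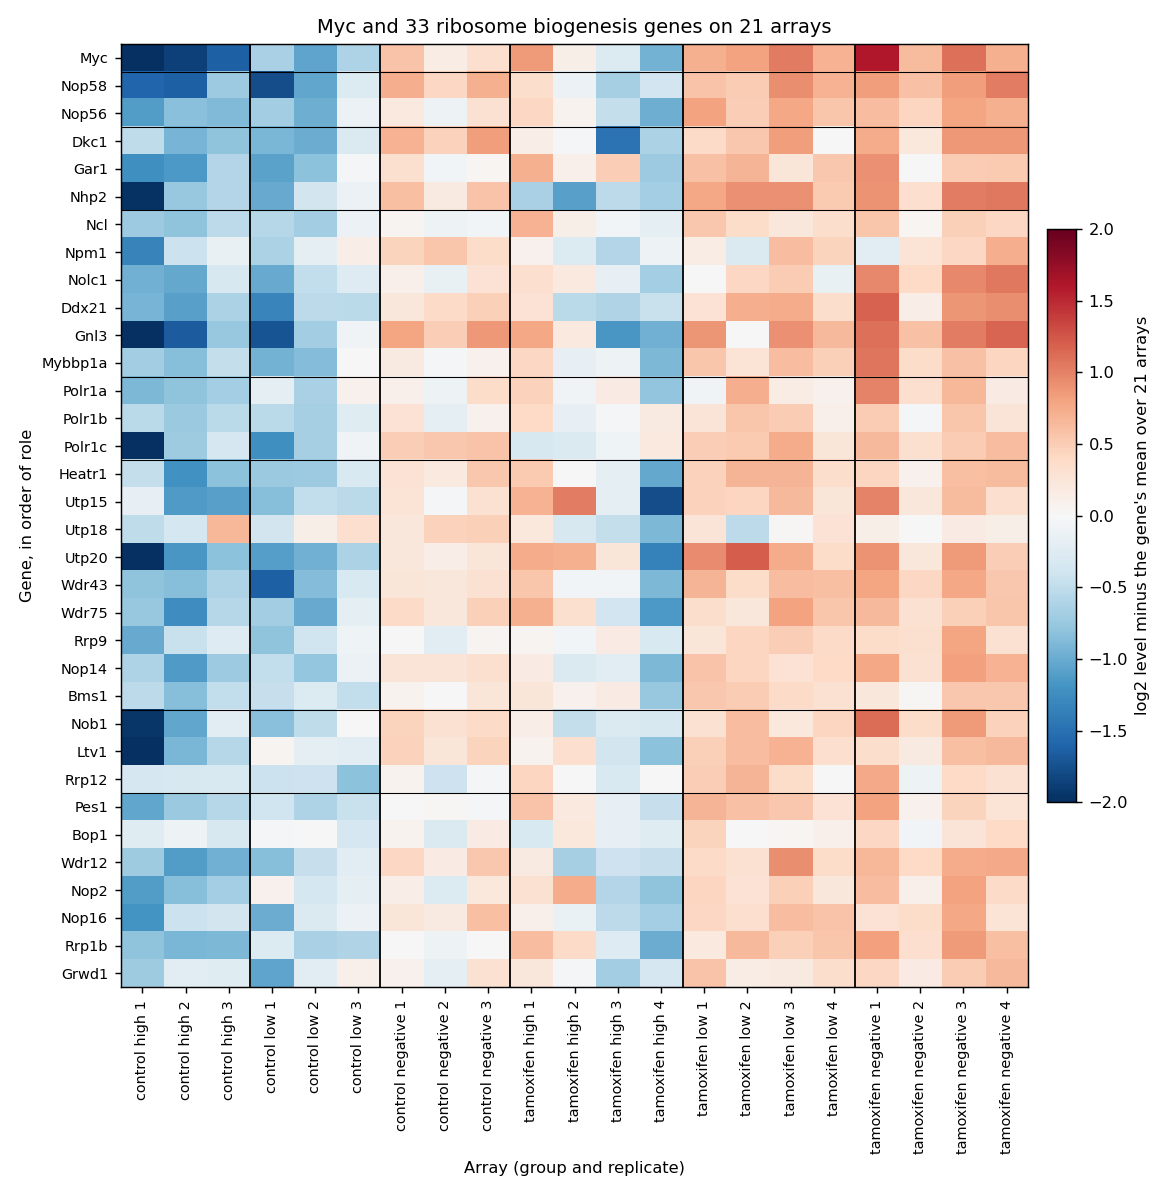
Log2 level of Myc and 33 ribosome biogenesis genes on 21 arrays, each minus the gene's mean over the arrays, with genes in order of role (lines part the roles) and arrays by group. The colour scale ends at -2 and 2. The control high columns are bluest, the tamoxifen low and negative columns are red throughout most rows, and among the tamoxifen high columns replicate 1 is mostly red and replicate 4 mostly blue.

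RefSeq promoters (build GRCm38.p6, 250 bases before to 50 after the start) were at hand for 31 of the 36 genes, not for Myc, Npm1, Bop1, Rrp12 and Fbl. The E-box CACGTG, which reads the same on both strands, was in 9 of the 31 (29.0%) and in 8.09% of 27025 genes with a promoter in the table. The 9 genes were Grwd1, Ltv1, Mybbp1a, Nop2, Pes1, Tsr1, Utp18, Utp20 and Wdr43. In 7 of the 9 the motif began after the start (77.8%), against 13.9% of the 2589 E-boxes of all promoters, and its first base lay at 3 (Pes1), 18 (Wdr43), 25 (Tsr1), 29 (Ltv1), 35 (Grwd1), 38 (Utp20) and 41 (Mybbp1a). The ETS motif CCGGAAG was in 35.5% of the 31 and 9.93% of all, the GC box GGGCGG in 71.0% and 38.2%, CCAAT in 35.5% and 41.1%, and TATAAA in 6.45% and 15.7%, each searched on both strands and counted whether or not it overlapped another motif. These promoters were richer in G and C (median 58.2% over 34 promoters, against 52.7%) and in CpG (median 21 per promoter, against 7), and a match describes the letters only. Of the E-box genes not printed below, Mybbp1a rose in low cells, Ltv1, Grwd1 and Nop2 were not called, and Tsr1 has no value of its own. Shown are 3 promoters with an E-box after the start whose genes rose in low cells (Utp20, Wdr43, Pes1). The others shown are that of Utp18, which did not rise and has its E-box before the start, at -20, and that of Nop58. Nop58 had no E-box and the smallest adjusted p of the list in low cells. Capitals mark the E-box. They lie at chr10:88826765-88827064 on the minus strand (Utp20), chr17:71615965-71616264 on the plus strand (Wdr43), chr11:3963725-3964024 on the plus strand (Pes1), chr11:93885717-93886016 on the minus strand (Utp18) and chr1:59684756-59685055 on the plus strand (Nop58).
Utp20: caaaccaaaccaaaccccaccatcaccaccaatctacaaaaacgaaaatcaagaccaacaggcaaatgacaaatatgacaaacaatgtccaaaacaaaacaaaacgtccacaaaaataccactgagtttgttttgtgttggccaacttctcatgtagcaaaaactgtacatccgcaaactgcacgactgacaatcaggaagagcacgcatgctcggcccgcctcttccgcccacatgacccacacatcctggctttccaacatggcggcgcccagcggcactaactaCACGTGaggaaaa
Wdr43: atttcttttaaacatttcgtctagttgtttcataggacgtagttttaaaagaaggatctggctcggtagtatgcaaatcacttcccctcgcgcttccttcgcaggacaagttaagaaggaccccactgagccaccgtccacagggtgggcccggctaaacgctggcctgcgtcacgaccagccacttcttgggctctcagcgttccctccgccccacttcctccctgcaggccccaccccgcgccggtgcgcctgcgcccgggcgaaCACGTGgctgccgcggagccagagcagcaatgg
Pes1: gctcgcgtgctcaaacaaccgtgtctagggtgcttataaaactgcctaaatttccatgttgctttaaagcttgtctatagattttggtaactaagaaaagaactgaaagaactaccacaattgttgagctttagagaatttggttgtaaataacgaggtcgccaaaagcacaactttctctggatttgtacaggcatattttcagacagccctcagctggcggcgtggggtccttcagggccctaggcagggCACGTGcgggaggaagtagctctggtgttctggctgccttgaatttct
Utp18: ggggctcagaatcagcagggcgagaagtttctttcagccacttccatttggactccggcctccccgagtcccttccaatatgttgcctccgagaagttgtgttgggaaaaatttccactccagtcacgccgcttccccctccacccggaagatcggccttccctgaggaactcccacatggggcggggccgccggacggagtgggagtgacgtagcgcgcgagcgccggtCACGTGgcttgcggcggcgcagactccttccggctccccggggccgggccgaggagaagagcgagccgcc
Nop58: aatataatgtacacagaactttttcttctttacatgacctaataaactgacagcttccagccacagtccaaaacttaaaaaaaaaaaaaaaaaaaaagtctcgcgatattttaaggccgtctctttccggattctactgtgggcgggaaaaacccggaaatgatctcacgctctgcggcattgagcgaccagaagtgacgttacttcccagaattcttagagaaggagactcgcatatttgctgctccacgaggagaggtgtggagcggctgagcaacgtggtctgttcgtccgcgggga

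Myc was the clearest case of a gene that was low in Lgr5GFP high cells and rose with tamoxifen. Its log2 level was 4.68, 5.11 and 5.34 on the control high arrays, 5.93 to 6.36 on the control low arrays and 7.14 to 7.55 on the control negative arrays, 3 ranges that did not overlap. After tamoxifen it was 7.83, 7.10, 6.71 and 6.03 in high cells (replicates 1 to 4), 7.68, 7.79, 8.02 and 7.68 in low cells, and 8.58, 7.62, 8.09 and 7.70 in negative cells. Every tamoxifen high array lay above every control high array, and every tamoxifen low array above every control low array. The change was 1.88 ± 0.30 (SE) in high cells, 3.67-fold, with a limma adjusted p of 0.00179. It was 1.58 ± 0.30 in low cells, 3.00-fold (adjusted p = 0.00206). In negative cells the difference was 0.66 ± 0.30 (95% interval 0.03 to 1.29, adjusted p = 0.367), with no overlap between the arrays but no call. In order of mean level the groups ran control high, control low, tamoxifen high, control negative, tamoxifen low and tamoxifen negative. Of the neighbours in that order, control high and low (adjusted p = 0.0802) and tamoxifen low and negative (adjusted p = 0.853) were not called apart, and the other 3 pairs were not tested. The call in high and in low cells was kept in all 7 fits that left out 1 array, with adjusted p up to 0.0203 and 0.0177. In a fit of only the 7 high arrays the same difference had an adjusted p of 0.151. That fit called 12 of all genes, against 606 in the main fit.

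**Figure D2:**
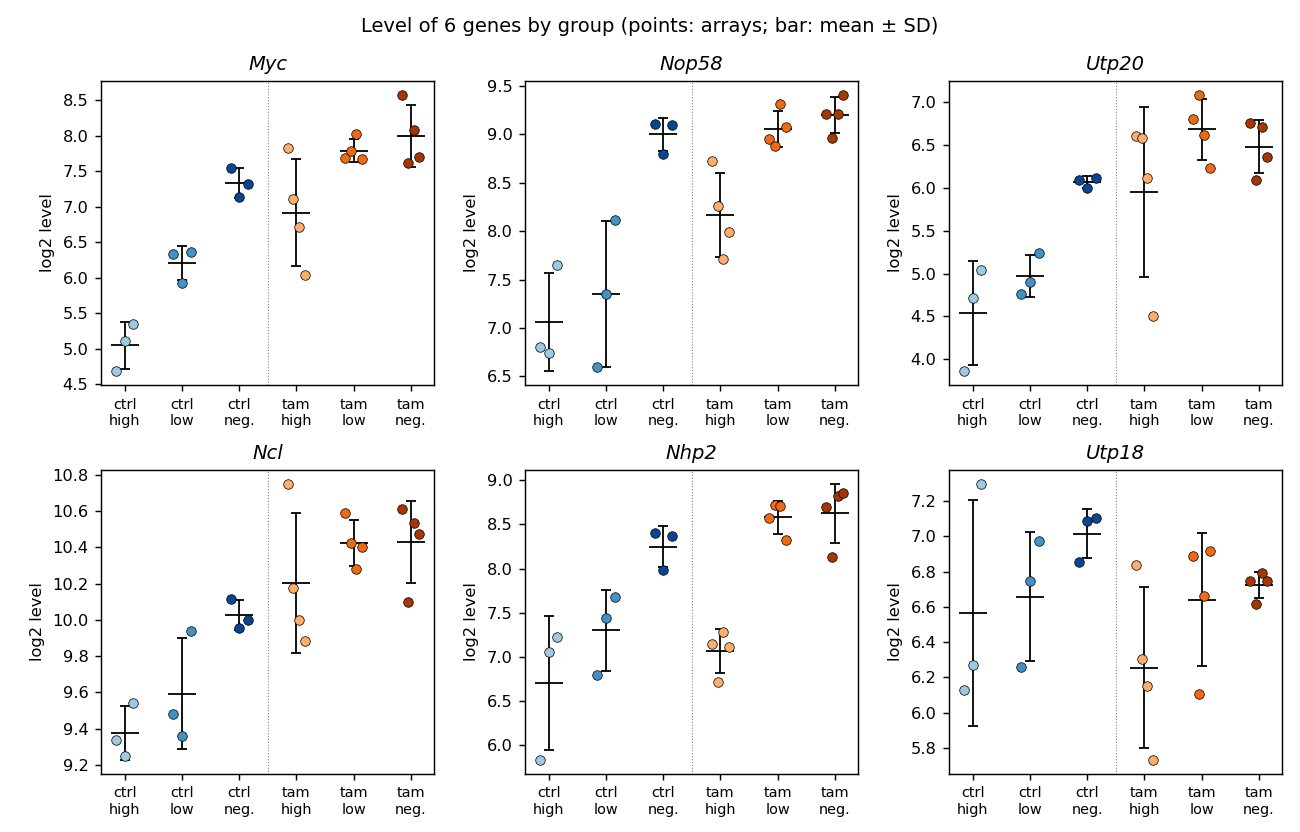
Log2 level (y axis) of Myc, Nop58, Utp20, Ncl, Nhp2 and Utp18 by group (x axis; ctrl, control; tam, tamoxifen), with points for arrays and bars for the mean and SD (n = 3 control, n = 4 tamoxifen). In Myc the 4 tamoxifen high arrays lie above the 3 control high arrays, in Nhp2 the tamoxifen high arrays stay near control high, and in Utp18 the groups overlap.

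In Lgr5GFP low cells tamoxifen was followed by a rise of most of the machinery. Of 34 genes, 24 rose and none fell, where 5.35% of all genes tested rose and 2.98% fell. The median change was 0.99 (range -0.02 to 1.72), and the median of all genes was 0.0076. For 30 genes every tamoxifen low array was above every control low array, which held for 12.1% of all genes. At least 2-fold changes were seen for 17 genes, a count with no share of all genes beside it. The mean level of the 34 genes was 6.46 to 6.999 on the control low arrays and 7.59 to 7.78 on the tamoxifen low arrays, so the groups did not overlap.

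All 5 measured proteins of the small nucleolar ribonucleoproteins rose in low cells. Nop58, a core protein of the box C/D particles that methylate ribosomal RNA, stood at 6.60, 7.35 and 8.11 on the control low arrays and at 8.96, 8.88, 9.31 and 9.08 on the tamoxifen low arrays. It rose by 1.71 ± 0.29 (adjusted p = 0.000704). Its partner Nop56 rose by 1.25 ± 0.25 (adjusted p = 0.00297), from 7.06 to 7.92 on the control arrays to 8.52 to 8.83 after tamoxifen. All 3 measured proteins of the box H/ACA particles, which convert uridine to pseudouridine, rose as well. These were Dkc1, the pseudouridine synthase (1.17 ± 0.30), Gar1 (1.15 ± 0.29) and Nhp2 (1.28 ± 0.28). Nhp2 was at 6.79, 7.44 and 7.68 on the control low arrays and at 8.32 to 8.72 after tamoxifen.

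Of the abundant nucleolar proteins, 4 of 6 rose in low cells. Ncl, nucleolin, a chaperone of the precursor RNA, went from 9.48, 9.36 and 9.94 to 10.59, 10.42, 10.28 and 10.40, a rise of 0.83 ± 0.19 (adjusted p = 0.00824). Ddx21, an RNA helicase that works with RNA polymerase I and in snoRNA release, rose by 1.32 ± 0.25 (adjusted p = 0.00207). Gnl3, nucleostemin, a nucleolar GTPase of stem and cycling cells, rose by 1.44 ± 0.43 (adjusted p = 0.0435), from a control range of 6.01 to 7.67. Mybbp1a, a regulator of ribosomal RNA transcription, rose by 1.08 ± 0.25. Not called were Npm1, nucleophosmin (0.46 ± 0.27, adjusted p = 0.359), and Nolc1, a snoRNP chaperone (0.78 ± 0.25, adjusted p = 0.0632). Of the 3 listed subunits of RNA polymerase I, Polr1b (0.84 ± 0.18, adjusted p = 0.00513) and Polr1c (1.15 ± 0.31, adjusted p = 0.0226) rose. The largest subunit, Polr1a, differed by 0.48 ± 0.26 (adjusted p = 0.315), and its groups overlapped.

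The small subunit processome, the particle that cleaves the precursor on the way to the small subunit, had 7 of 9 members up in low cells. Utp20, a large scaffold of late processome assembly, went from 4.76, 4.90 and 5.24 to 6.80, 7.08, 6.61 and 6.24. Its rise of 1.72 ± 0.37 (3.29-fold, adjusted p = 0.00582) was the largest among the 34 genes. Wdr43, which ties the processome to RNA polymerase I transcription, rose by 1.502 ± 0.27 (adjusted p = 0.00122), from 6.54, 7.30 and 7.86 to 8.54 to 8.85. Heatr1 (1.13 ± 0.26), a stimulator of ribosomal RNA transcription, Wdr75 (1.12 ± 0.31), Nop14 (0.89 ± 0.21), the GTPase Bms1 (0.84 ± 0.20) and Rrp9 (0.81 ± 0.19), which binds the U3 snoRNA, rose as well. Utp15 differed by 1.07 ± 0.42 with no overlap between arrays (adjusted p = 0.135). Utp18 did not follow: its levels were 6.26, 6.74 and 6.97 in control and 6.89, 6.10, 6.66 and 6.91 in tamoxifen low cells, a difference of -0.02 ± 0.27 (95% interval -0.58 to 0.55).

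Of the 3 measured factors of small subunit maturation, Rrp12, an export and maturation factor, rose by 0.94 ± 0.21 (adjusted p = 0.00641). Nob1, the nuclease that trims the 3′ end of 18S RNA, differed by 0.83 ± 0.29 (adjusted p = 0.0806), and Ltv1, a late assembly factor, by 0.65 ± 0.31 (adjusted p = 0.235). In large subunit assembly 4 of 7 rose. Pes1 (1.01 ± 0.20, adjusted p = 0.00337) and Wdr12 (1.01 ± 0.21, adjusted p = 0.00368) form the PeBoW complex with Bop1, the member not called (0.27 ± 0.17, 95% interval -0.08 to 0.63). Pes1 lay at 6.91 to 7.14 on the control low arrays and at 7.83 to 8.22 after tamoxifen, and Bop1 at 5.53 to 5.87 and 5.87 to 6.31. Nop16 (0.96 ± 0.23) and Rrp1b (0.97 ± 0.26) rose, and the RNA methyltransferase Nop2 (0.50 ± 0.27, adjusted p = 0.304) and the histone-binding Grwd1 (0.70 ± 0.24, adjusted p = 0.0846) were not called.

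Of the 24 calls in low cells, 12 were kept in all 7 fits that left out 1 array: those of Myc, Nop58, Nop56, Ddx21, Polr1b, Heatr1, Utp20, Wdr43, Bms1, Rrp12, Pes1 and Wdr12. The count fell to 15 when control low 1 was left out and likewise for control low 2, and was 20 to 26 in the other 5 fits. The calls lost in both of the first were those of Dkc1, Gar1, Gnl3, Mybbp1a, Polr1c and Wdr75, joined by Nhp2, Rrp9 and Nop16 in the fit lacking control low 1 and by Ncl, Nop14 and Rrp1b in the other. Without control low 3 the count was 26, the median change 1.09, and 31 genes were higher on every array (17.0% of all genes were). Myc then changed by 1.66 and Nop58 by 2.09. The calls of Dkc1, Gnl3, Polr1c and Wdr75 were also lost without tamoxifen low 3, those of Gnl3 and Polr1c without tamoxifen low 1, those of Gnl3 and Wdr75 without tamoxifen low 4, and those of Polr1c and Rrp1b without tamoxifen low 2. The call of Rrp1b was lost without control low 3 too.

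**Figure D3:**
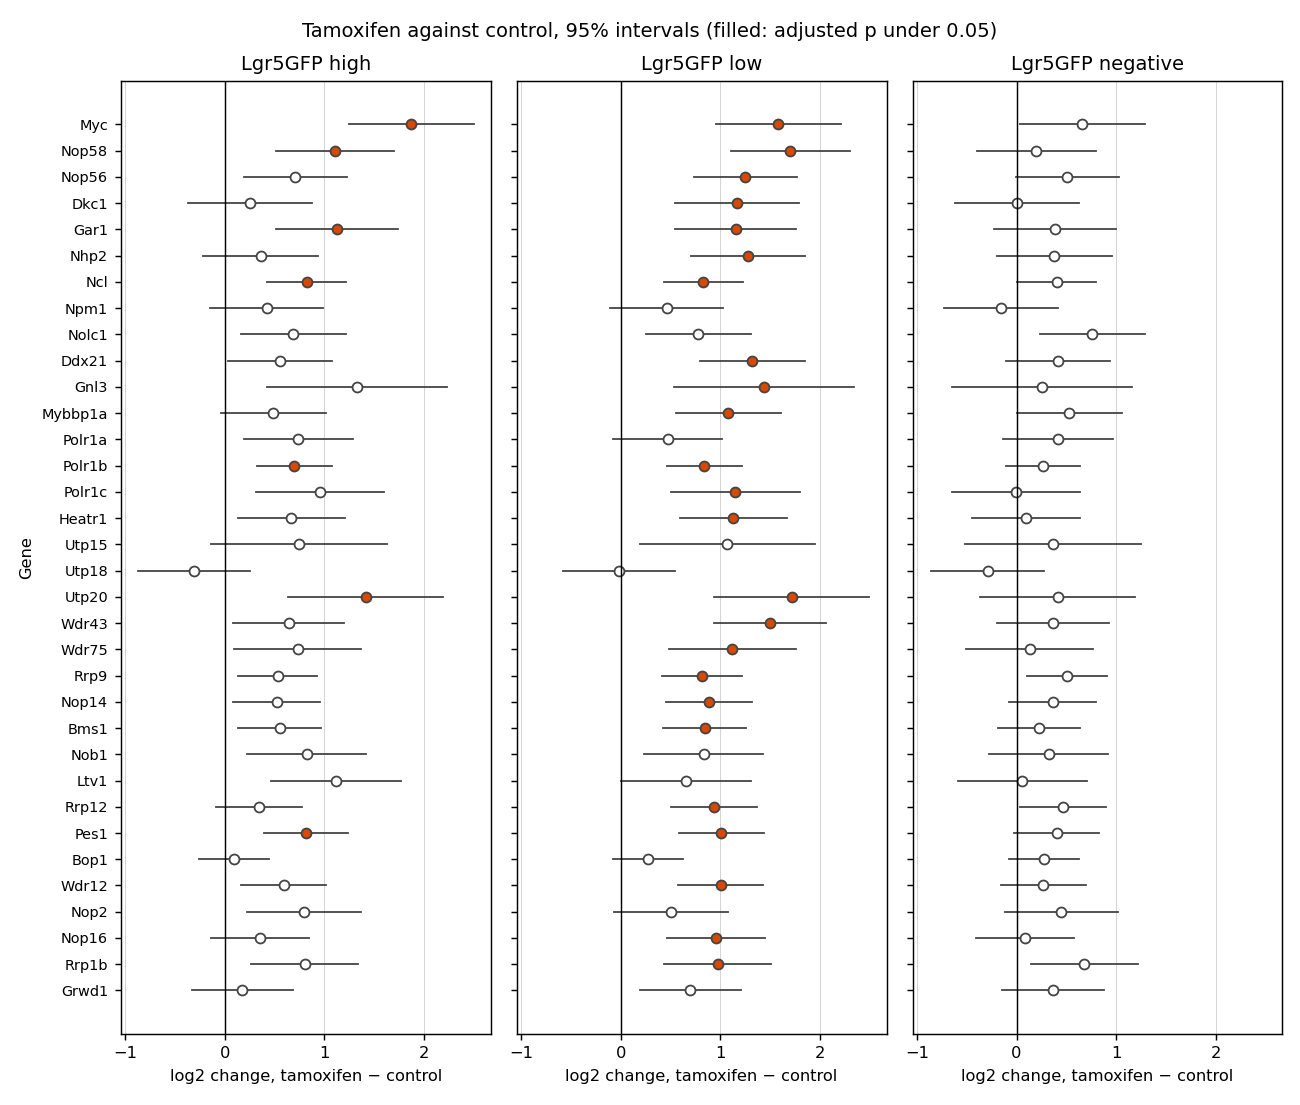
Log2 change (x axis, tamoxifen minus control) of each of the 34 genes (y axis) in the 3 populations, with 95% intervals of the limma fit. Filled points passed an adjusted p of 0.05, which gives 7 filled points in high cells, 24 in low cells and 0 in negative cells.

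In Lgr5GFP high cells fewer of the genes were called. Of 34, 7 rose and none fell, where 1.7% of all genes rose and 1.04% fell. The median change was 0.69 (range -0.31 to 1.88), with 33 genes above 0, and the median of all genes was 0.0013. Only 9 genes were higher on every array, where 5.78% of all genes were. The risers were Myc, Nop58, Gar1, Ncl, Polr1b, Utp20 and Pes1, and all 7 were among the 24 that rose in low cells. The comparisons share no array, but high and low cells carry the same title numbers, read here as sorting runs. Both comparisons also used the same estimate of the spread, so the overlap is not independent support.

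Nop58 was at 6.80, 6.74 and 7.65 on the control high arrays and at 8.73, 8.26, 7.71 and 7.99 after tamoxifen, a rise of 1.11 ± 0.29 (adjusted p = 0.0410). Ncl went from 9.34, 9.25 and 9.54 to 10.75, 10.18, 9.997 and 9.88 (0.83 ± 0.19, adjusted p = 0.0231), and Pes1 from 6.50 to 6.97 on the control arrays to 7.07 to 8.11 (0.82 ± 0.20, adjusted p = 0.0340). In these genes, as in Polr1b (0.70 ± 0.18, adjusted p = 0.0394), the arrays of the groups did not overlap. Utp20 rose by 1.41 ± 0.37 (adjusted p = 0.0451) although its groups overlapped. Its levels were 3.86, 4.71 and 5.04 in control high cells and 6.60, 6.58, 6.11 and 4.51 after tamoxifen, with tamoxifen high 4 among the controls. Gar1 rose by 1.13 ± 0.29 (adjusted p = 0.0414) with the same array overlapping the controls at 5.88. Close to the threshold was Ltv1 (1.12 ± 0.31, adjusted p = 0.0589), and Gnl3 differed by 1.33 ± 0.43 (adjusted p = 0.108) on levels that ran from 5.31 to 6.98 in control and 6.58 to 8.51 in tamoxifen cells. Nhp2 was not called in high cells, at 5.83, 7.05 and 7.22 in control and 7.15, 6.71, 7.28 and 7.12 in tamoxifen mice (0.36 ± 0.28, adjusted p = 0.548). Dkc1 (0.25 ± 0.30), Grwd1 (0.18 ± 0.24) and Bop1 (0.10 ± 0.17) had the smallest positive values, and Utp18 was at -0.31 ± 0.27.

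The tamoxifen high arrays differed among themselves in these genes, as they did over all genes. The mean level of the 34 genes was 7.55, 7.23, 6.93 and 6.57 on replicates 1 to 4, against 6.14 to 6.65 on the control high arrays, so that tamoxifen high 4 lay inside the control range. Of the 34 genes, 27 were highest on tamoxifen high 1 and 21 lowest on tamoxifen high 4. The median SD of the 34 genes was 0.45 in this group and 0.18 to 0.37 in the other 5, and that of all genes was 0.31 and 0.15 to 0.24. The count of 7 depended on single arrays: leaving out tamoxifen high 1, control high 1 or control high 2 left 1 call (Myc), leaving out tamoxifen high 2 left 3, and leaving out tamoxifen high 4 gave 20. Without tamoxifen high 1 the median change was 0.49, that of Myc 1.57 (adjusted p = 0.00351), and 9 genes were higher on every array (7.94% of all genes were). Gar1 and Utp20 lost their calls without tamoxifen high 3, and Polr1b lost its call without control high 3. A fit of only the high arrays called 0 of the 34, and it called 12 of all genes, against 606 in the main fit.

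In Lgr5GFP negative cells none of the 34 genes was called (1.62% of all genes rose and 0.703% fell), and limma gave 7 an unadjusted p under 0.05. Here and below, counts at an unadjusted p use a looser limit than the calls, with no share of all genes at that limit. The median difference was 0.37 (range -0.29 to 0.76), and 31 values were above 0. Higher on every array were 8 genes, where 7.89% of all genes were, and Utp18 was lower on every array (-0.29 ± 0.27). The largest values were those of Nolc1 (0.76 ± 0.25, 95% interval 0.23 to 1.29, adjusted p = 0.154) and Rrp1b (0.68 ± 0.26, adjusted p = 0.238). Nop58 differed by 0.20 ± 0.29, on levels of 8.80 to 9.10 in control and 8.96 to 9.41 in tamoxifen cells. The mean level of the 34 genes was 7.32 to 7.56 in control negative and 7.47 to 7.93 in tamoxifen negative cells.

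Whether the tamoxifen change differed between populations was tested with interaction terms of the same fit, and 0 of the 34 genes passed in any of the 3. Of all genes, 0.839% were called between low and negative cells, 0.248% between high and negative cells and 0.0271% between high and low cells. The counts at an unadjusted p under 0.05 below use a looser limit. Neither these nor the counts of larger changes have a share of all genes beside them. Between low and negative cells limma gave 16 genes an unadjusted p under 0.05, and 33 had the larger change in low cells. The smallest adjusted p was that of Nop58, whose change was greater by 1.505 ± 0.41 in low cells (95% interval 0.66 to 2.35, adjusted p = 0.0990). The call was made without control low 3, and Heatr1 and Utp20 passed in a fit of only the 4 groups compared. Between high and negative cells 4 genes had an unadjusted p under 0.05, led by Myc with a greater change in high cells by 1.21 ± 0.42 (95% interval 0.33 to 2.10, adjusted p = 0.336). Between high and low cells 4 genes had an unadjusted p under 0.05. Those were Nhp2 (-0.92 ± 0.39), Dkc1 (-0.91 ± 0.42), Wdr43 (-0.86 ± 0.38) and Ddx21 (-0.77 ± 0.36), each with the smaller change in high cells and an adjusted p from 0.682 to 0.723. The change was larger in low than in high cells for 30 genes, but in Myc it was larger in high cells by 0.29 ± 0.42 (95% interval -0.59 to 1.18).

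In uninjected mice most of these genes were lower in Lgr5GFP high than in negative cells. Between control high and control negative cells 26 of 34 genes were lower and none higher, where 7.66% of all genes were lower. All 34 values were below 0 with a median of -1.05, and 31 genes were lower on every array, where 17.0% of all genes were. Gnl3 (-2.33 ± 0.46, adjusted p = 0.00165) and Myc (-2.29 ± 0.32, adjusted p = 7.79e-05) had the largest differences. Nop58 (-1.94 ± 0.31), Ltv1 (-1.70 ± 0.33), Polr1c (-1.61 ± 0.33), Nhp2 (-1.55 ± 0.30) and Utp20 (-1.53 ± 0.40) followed. Gnl3 was at 5.31, 6.07 and 6.98 on the control high arrays and at 8.52, 8.23 and 8.60 on the control negative arrays. Not called were Mybbp1a, Utp15, Utp18, Rrp9, Rrp12, Bop1, Rrp1b and Grwd1, with differences from -0.98 (Utp15) to -0.19 (Rrp12). The count was 14 without control high 1, 17 without control high 2, 16 without control negative 1 and 15 without control negative 3, and 13 calls were kept in all 6 fits, among them Myc, Nop58, Gnl3 and Nhp2.

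Control low cells had mean levels of the 34 genes between 6.46 and 6.999, below the control negative arrays. Against control negative cells 7 genes were lower (3.41% of all genes were): Myc (-1.13 ± 0.32), Nop58 (-1.65 ± 0.31), Dkc1 (-1.40 ± 0.32), Ddx21 (-1.16 ± 0.27), Polr1c (-1.19 ± 0.33), Wdr43 (-1.19 ± 0.29) and Wdr12 (-0.88 ± 0.22). The median was -0.73, and 26 genes were lower on every array (13.8% of all genes were). With the sorting run as a replicate block, which pairs the populations of a sort, 13 genes were called. Without 1 array the count was 1 (control low 1), 2 (control low 2), 13 (control low 3), 2 (control negative 1), 4 (control negative 2) or 1 (control negative 3), and the call of Nop58 was kept in all 6 fits. Control high and low cells did not differ by a call in any of the 34 genes (0.645% of all genes were lower), with 3 unadjusted p under 0.05 by limma and a median of -0.27. Myc was lower on every control high array than on any control low array (-1.16 ± 0.32, 95% interval -1.83 to -0.50, adjusted p = 0.0802), and Ltv1 (-1.19 ± 0.33, adjusted p = 0.0885) passed without control high 3.

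Between low and negative cells of tamoxifen mice none of the 34 genes was called (1.73% of all genes were lower), 1 had an unadjusted p under 0.05 by limma (Nolc1, -0.65 ± 0.24), and the median was -0.08. For Myc the difference was -0.20 ± 0.28 (95% interval -0.78 to 0.38) and for Nop58 -0.14 ± 0.27 (95% interval -0.69 to 0.41). High cells still lay lower. Against tamoxifen negative cells 12 genes were lower (6.97% of all genes were) and 11 were lower on every array (6.17% of all genes were), with all 34 values below 0 and a median of -0.64. Nhp2 (-1.56 ± 0.26, adjusted p = 0.000446), Dkc1 (-1.17 ± 0.28), Ddx21 (-1.11 ± 0.23), Wdr12 (-0.98 ± 0.19) and Nop14 (-0.96 ± 0.19) kept their calls in all 8 fits that left out 1 array, and the other 7 (Myc, Nop58, Nop56, Nolc1, Mybbp1a, Nob1 and Nop16) lost theirs in at least 1. Against tamoxifen low cells 6 genes were lower (1.77% of all genes were): Nop56, Nhp2, Ddx21, Nop14, Wdr12 and Nop16, with a median over the 34 of -0.61. Nhp2 had the largest difference there, -1.51 ± 0.26 (adjusted p = 0.00196), and only its call was kept in all 8 fits. Without 1 array the count against negative cells was 19 (tamoxifen high 1), 7 (tamoxifen high 3) or 6 (tamoxifen high 4), and that against low cells 13 (tamoxifen high 1), 1 (tamoxifen low 3) or 2 (tamoxifen high 3, tamoxifen high 4, tamoxifen low 1, tamoxifen low 2 and tamoxifen low 4). Over the 6 groups, 30 genes were lowest in control high cells, 21 were highest in tamoxifen negative cells and 10 in tamoxifen low cells. The order of groups was not counted over all genes. Comparisons that share a group share its arrays.

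Other genes of ribosome production were taken as lists. Beside the counts of every list below, 5.35% of all genes rose and 2.98% fell in low cells. In high cells 1.7% rose and 1.04% fell, and in negative cells 1.62% rose and 0.703% fell. Of 76 further biogenesis factors 73 were measured, and 31 rose and none fell in low cells (median 0.67), 8 rose in high cells (median 0.43) and 0 in negative cells (median 0.26, with 15 unadjusted p under 0.05 by limma). In low cells the smallest adjusted p were those of Ebna1bp2 (1.01 ± 0.15), of large subunit assembly, Ftsj3 (1.55 ± 0.24), an RNA methyltransferase, Aatf (1.01 ± 0.17), of small subunit assembly, and Noc2l (1.73 ± 0.29), of large subunit export. Aatf (0.97 ± 0.17, adjusted p = 0.00343), the helicases Ddx47 (0.81 ± 0.17) and Ddx10 (0.97 ± 0.21), and Ftsj3 (1.02 ± 0.24) led in high cells, where the call of Aatf was kept in all 7 fits that left out 1 array. The calls of Ddx47 and Ddx10 in high cells were lost without control high 1, and that of Ftsj3 without tamoxifen high 1, 2 or 3 or control high 1 or 2. The list's count in low cells was 17 without control low 1 or control low 2 and 18 without tamoxifen low 1. In high cells leaving out tamoxifen high 1 or control high 2 gave 3, tamoxifen high 2 gave 4, tamoxifen high 4 gave 23 and control high 1 gave 1. A fit of only the high arrays, which called 12 of all genes, gave 0.

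The RNA exosome, the complex that trims and degrades nuclear RNA, had 6 of 11 measured genes up in low cells (median 0.78), among them Exosc3 (1.01 ± 0.19, adjusted p = 0.00192), Exosc1 (1.61 ± 0.36), the nuclease Dis3 (1.48 ± 0.39) and Exosc10 (0.52 ± 0.14). Without 1 array that count was 1 (control low 1), 2 (control low 2 or tamoxifen low 2) or 3 (tamoxifen low 3), and Exosc3 was kept in all 7 fits. Further subunits and partners of RNA polymerase I rose for 4 of 12 genes in low cells: Polr2f (0.92 ± 0.22), Polr1d (0.66 ± 0.17), Polr1e (0.76 ± 0.22) and Taf1a (1.12 ± 0.33), a count of 4 that was 1 without tamoxifen low 1 or control low 1, 2 without tamoxifen low 2 and 0 without control low 2. Polr2f rose in high cells too (1.02 ± 0.22, adjusted p = 0.0177), but lost that call when tamoxifen high 1 was left out, and likewise for control high 1 and control high 2. Of 18 genes of RNA polymerase III, which makes 5S and transfer RNA, 3 rose in low cells (Polr3c, Gtf3c3 and Crcp, median of the list 0.29), and only the call of Polr3c (0.94 ± 0.20) was kept in all 7 fits. Without tamoxifen low 1, tamoxifen low 2, control low 1 or control low 2 it was the only call of that list.

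Few genes of the ribosomal proteins themselves were called. Of 79, 59 have a row of their own, and only Rpl22 was called, in low cells (0.74 ± 0.21, adjusted p = 0.0277), a call lost without control low 1, control low 2 or tamoxifen low 2, 3 or 4. Their medians were 0.12, 0.26 and 0.02 in high, low and negative cells, with 4, 7 and 0 unadjusted p under 0.05 by limma. Between control high and negative cells, 24 of the 59 were lower (median -0.65), where 7.66% of all genes were. That count was not refitted without single arrays. By group, 2 to 4 of the 59 had a mean at or under background, Rpl39 in every group, so some of these rows may not follow their gene. Ribosomal protein genes have many processed copies in the genome, and how the array's probes divide between them was not tested.

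**Figure D4:**
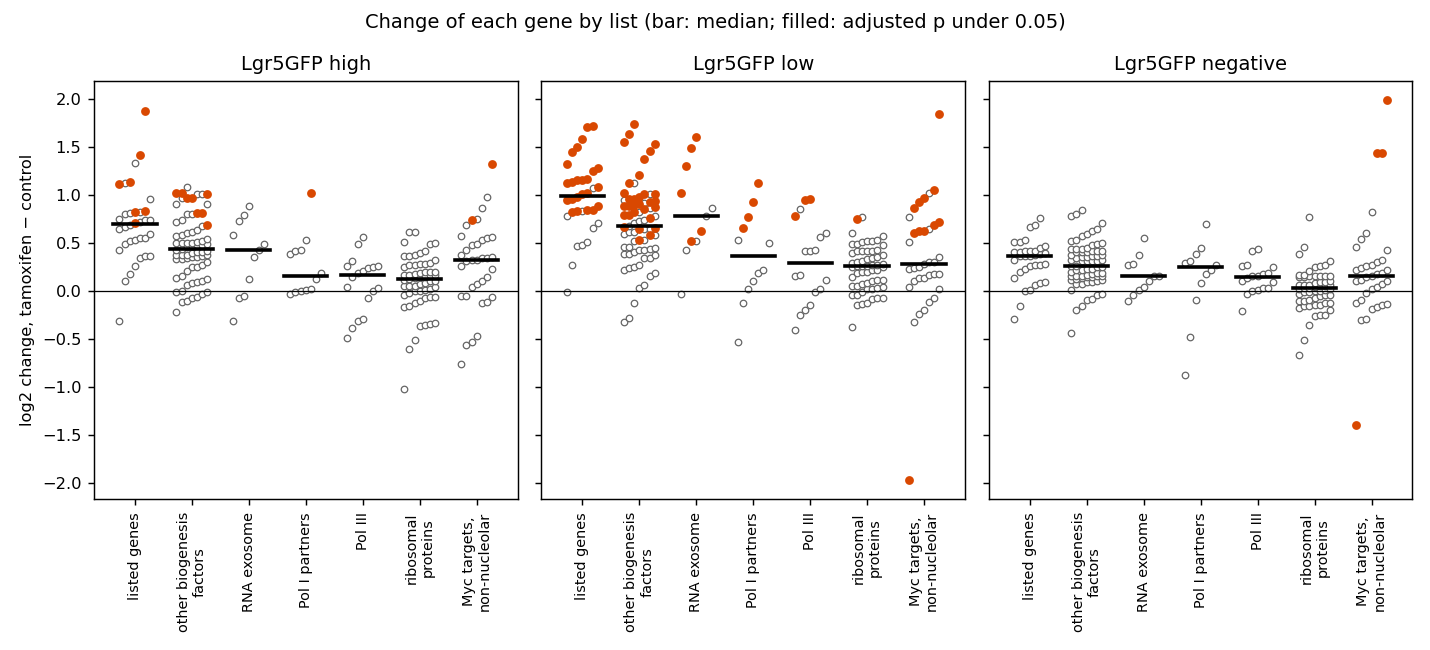
Log2 change (y axis, tamoxifen minus control) of single genes by list (x axis) in the 3 populations, with the list's median as a bar and genes of adjusted p under 0.05 filled. The medians in low cells are 0.99 for the 34 genes, 0.67 for other biogenesis factors, 0.78 for the exosome and 0.26 for ribosomal proteins.

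The Myc network and targets outside the nucleolus were more mixed. Of 18 genes of the Myc family and its partners, Ruvbl2, an ATPase of Myc cofactor complexes, rose in high (0.94 ± 0.20) and low cells (0.76 ± 0.20), Ruvbl1 rose in low cells (0.93 ± 0.25), and Mxd1, a repressor that competes with Myc for Max, fell in high cells (-1.22 ± 0.27, adjusted p = 0.0196). The call of Ruvbl2 in high cells was lost without control high 1, and in low cells without tamoxifen low 1, tamoxifen low 3, control low 1 or control low 2. That of Ruvbl1 was lost without tamoxifen low 2 or control low 2, and that of Mxd1 when any of tamoxifen high 1, control high 1 and control high 2 was left out. Of 35 measured targets outside the nucleolus, 10 rose and 1 fell in low cells, 2 rose in high cells, and 3 rose and 1 fell in negative cells. Eif4ebp1, a brake on cap-dependent translation, rose by 1.85 ± 0.31 in low cells (adjusted p = 0.000735), 1.31 ± 0.31 in high cells and 1.43 ± 0.31 in negative cells. Prmt5, an arginine methyltransferase, rose in low (0.92 ± 0.19) and high cells (0.74 ± 0.19), and the chaperonin subunit Cct5 in low cells (0.71 ± 0.16). The gene that fell was Tfrc, the transferrin receptor, with differences of -1.97 ± 0.30 in low cells (adjusted p = 0.000254) and -1.40 ± 0.30 in negative cells (adjusted p = 0.0131). The amino acid transporter Slc7a5 and its heavy chain Slc3a2 rose in negative cells, by 1.99 ± 0.38 (adjusted p = 0.00689) and 1.43 ± 0.31. The calls of Eif4ebp1, Tfrc, Prmt5 and Cct5 in low cells were kept in all 7 fits, and no call of this list in high or negative cells was. The count of 11 was 7 without tamoxifen low 1, 6 without tamoxifen low 2 and 4 without control low 1. The count of 2 in high cells became 0 when tamoxifen high 1, tamoxifen high 2 or control high 2 was left out, 1 when tamoxifen high 3, control high 1 or control high 3 was, and 7 when tamoxifen high 4 was, and the count of 4 in negative cells was 1 without tamoxifen negative 2, 0 without control negative 2 and 2 without control negative 3.

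Markers of several cell types in the sort differed between the groups as well, and not all of them moved with these genes. In bulk RNA, fewer cells of a type and less RNA per cell cannot be told apart. The mean of the 8 measured tuft cell markers (of 10 listed) was 10.56 to 11.25 on the control high arrays, 8.69 to 10.04 on the control low arrays and 6.86 to 8.10 on the control negative arrays, the reverse of the order of the biogenesis genes. After tamoxifen it was 5.31 to 7.09 in low cells, where all 8 fell (7 without control low 1), and 5.83 to 6.86 in negative cells, where 0 of 8 were called (1 without tamoxifen negative 4). In high cells 0 of 8 were called (median -1.16, 2 without tamoxifen high 4). On tamoxifen high 1, where the mean of the 34 genes was 7.55, the tuft marker mean was 7.87, and on tamoxifen high 4, where the mean of the 34 genes was 6.57, it was 10.64. No tuft marker was at or under background in any group.

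The mean of 7 surface pit cell markers was 11.92 to 12.00 in control negative and 11.43 to 11.82 in tamoxifen negative cells, against 8.11 to 9.39 in control high and 7.36 to 8.99 in tamoxifen high cells. In low cells it was higher after tamoxifen, as were the biogenesis genes: 8.78 to 9.59 on the control arrays and 9.64 to 10.36 on the tamoxifen arrays, which do not overlap, with a median change of 1.06 over the 7 markers and 2 of 7 called (Anxa10 and Mucl3). The 10 measured genes of G2 and M phase had means of 7.88 to 8.29 in control negative and 4.52 to 5.73 in control high cells. After tamoxifen the means were 4.33 to 4.98 in high, 5.52 to 6.22 in low and 6.12 to 8.32 in negative cells. In negative cells the median array was at 7.94 in control and 7.10 after tamoxifen, although 21 of the 34 genes were highest in tamoxifen negative cells. None of the 10 was called in any tamoxifen comparison (1 in negative cells without tamoxifen negative 4). Of 12 S phase genes, 6 rose in low cells (1 without control low 2, 2 without control low 1, 3 without tamoxifen low 3, and 4 without tamoxifen low 2), and 0 were called in high (1 without tamoxifen high 4 or control high 3) or negative cells. The mean of 6 chief cell markers was 10.90 to 11.25 in control low and 9.74 to 10.10 in tamoxifen low cells, where 2 of 6 fell.

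Markers of other epithelial types changed as well. Of 10 parietal cell markers, 5 fell in low cells (median -1.52), 3 in high cells (median -0.47) and 5 in negative cells (median -1.31). The count in negative cells was 2 without control negative 3, and 3 without tamoxifen negative 2, tamoxifen negative 3 or control negative 1. Of 5 mucous neck cell markers, 2 fell in low cells (median -1.94, 4 without tamoxifen low 4), 0 in high cells (median -0.41) and 3 in negative cells (median -1.84). The count in negative cells was 1 without tamoxifen negative 2 or 3 or any 1 of the control negative arrays. Of 8 endocrine cell markers, 3 fell in low cells (median -1.88) and 0 were called in high cells (median 0.37). In negative cells all 8 were higher on every array (median 1.52), with 1 called (4 without tamoxifen negative 4, 0 without control negative 1). Markers of endothelial cells were at or under background for 3 or 4 of 4 genes in every group, and those of fibroblasts and smooth muscle for 3 to 6 of 8. Of 9 measured immune cell markers, 2 to 5 were at or under background by group. Cd68 was called between tamoxifen and control in low and in negative cells, each in all 7 fits that left out 1 array. Ptprc was called in low cells, but not without tamoxifen low 1, tamoxifen low 2 or control low 1. Its mean was above background in control low cells and at or under it in tamoxifen low cells. The part of cell type markers and of the sorting run in the changes of the biogenesis genes was not tested.

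**Figure D5:**
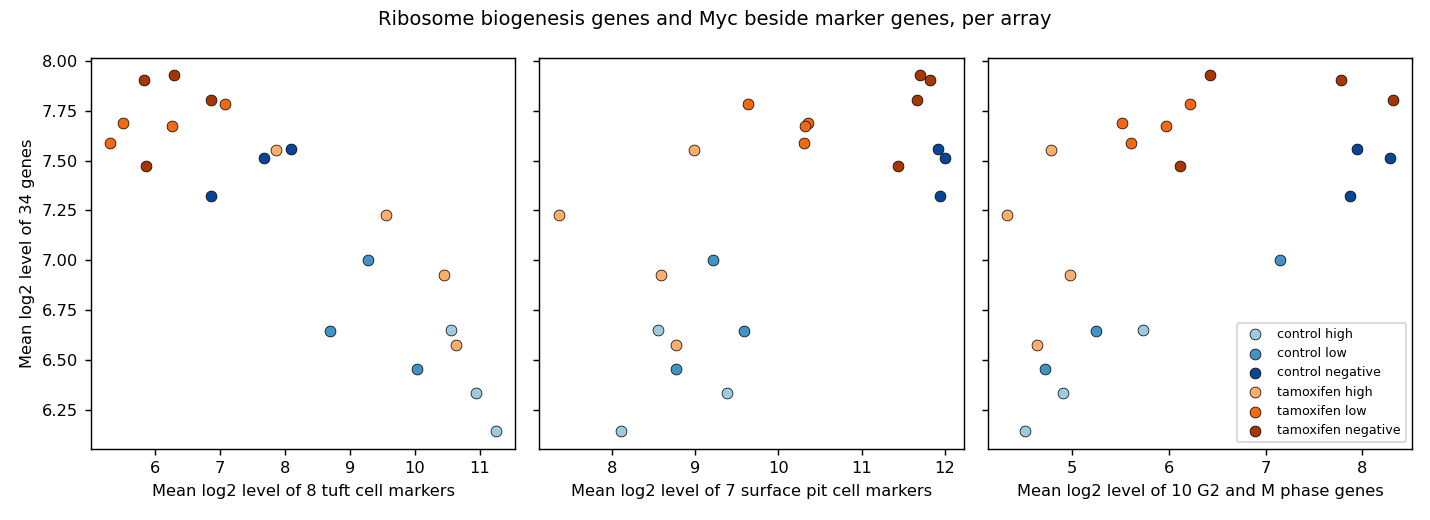
Mean log2 level of the 34 genes (y axis) on each of 21 arrays beside the mean log2 level (x axis) of 8 tuft cell markers, 7 surface pit cell markers and 10 G2 and M phase genes, coloured by group. The control high arrays, with tuft marker means of 10.56 to 11.25, lie at 6.14 to 6.65 for the 34 genes, and the tamoxifen low arrays, with 5.31 to 7.09, at 7.59 to 7.78.

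Genes with and without an E-box were both among the risers. In low cells 4 of 8 measured genes with the motif rose (median 0.86), among them Utp20 and Wdr43 shown above, and 18 of 22 with a promoter but no E-box in it rose (median 1.04), Nop58 among them. In high cells the counts were 2 of 8 (median 0.72) and 4 of 22 (median 0.71). No match says only that the letters are not in the 300 bases searched.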

How the data were processed

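RNA of 21 sorted cell samples was measured on whole-transcript arrays, 1 array per sample. The authors deposited 1 table of log2 values with 41345 rows. The submitters' processing notes name RMA, oligo, limma 3.26.8 and R 3.2.3, with no role or order. The genome build used with the array is not given in the sources used here. No other per-sample column was in the table (0 unused). Of the rows, 23521 name 1 gene, 1814 several and 16010 none in the platform table. Symbols of 23328 rows were updated by gene number. For the 1082 genes with more than 1 row, the row with the highest mean was used, which left 22180 genes. Array medians were 3.95 to 4.25, and the number of arrays limits the precision.

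limma 3.58.1 in R 4.3.3 was fitted to all genes with 6 group means (lmFit, eBayes), giving 15 residual degrees of freedom. P-values were adjusted by the Benjamini-Hochberg method over all genes in each of 12 comparisons, and a gene was called at an adjusted p under 0.05. The procedure was tested on simulated data. Groups were taken from the sample titles. The source label of the control negative samples reads as the low population, against their titles and characteristics. The members, the other lists and the markers were chosen with earlier results of these data known. Named genes were all members, and in each other list up to 4 called genes of smallest adjusted p per population. The sorting run, inferred from the number in the sample title, pairs populations within a treatment. Replicate numbers do not follow it in tamoxifen negative cells. Tamoxifen negative 2, 3 and 4 share a run with replicates 1, 2 and 3 of tamoxifen high and low cells. Tamoxifen negative 1 has no partner, and tamoxifen high 4 and tamoxifen low 4 pair only with each other. Deviations of same-run samples correlated from 0.09 to 0.32 in control samples, and from -0.16 to 0.41 in tamoxifen samples, where 5 of 10 pairs were below 0. Alternatives were other scaling, other row choice, other variance models, subsets of groups, a filter on dim genes, blocks and leaving out each array.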

Additional observations from a re-analysis of the deposited data

Results flagged for a closer look

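In groups of 4 arrays, the highest or lowest array of a gene was set against the others by Dixon's ratio, and 4 of 102 combinations of gene and tamoxifen group passed the 95% limit, where chance gives about 1 in 20. Nolc1, a snoRNP chaperone, was at 7.56 on tamoxifen negative 2 and at 8.13 to 8.22 on the other 3 arrays. Rrp9, the U3 snoRNA-binding protein of the processome, was at 7.08 on tamoxifen negative 3 and at 6.60 to 6.66 on the others. Bms1, the processome GTPase, was at 6.52 on tamoxifen high 4 and at 7.36 to 7.52 on the others. Wdr12, of the PeBoW complex, was at 6.80 on tamoxifen low 3 and at 6.17 to 6.24 on the others.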

How the results depend on the processing

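Counts of called genes among the 34 are given here where they moved by more than 1.5 times. For tamoxifen against control in high cells the count of 7 became 4 with arrays centred on their median, 0 in a fit of only the groups compared and 11 with the replicate number as a block, and ran from 1 to 20 without 1 array. Calls over all genes went from 606 to 426, 12 and 1128 in those settings, in that order. For control low against negative cells, 7 became 15 in a fit of only the groups compared, 11 with the sorting run as a random block and 13 with the sorting run as a replicate block, and ran from 1 to 13 without 1 array. Over all genes 1168 calls became 1807, 1353 and 1436, in the same order. For tamoxifen high against low cells, 6 became 2 with arrays centred and 1 in a fit of only the groups compared, and ran from 1 to 13. There, 715 calls over all genes became 522 and 245. For tamoxifen high against negative cells, 12 became 6 in a fit of only the groups compared (2283 over all genes became 938), and ran from 6 to 19. The count in low cells ran from 15 to 26 without 1 array, that of control high against negative cells from 14 to 24, that of control high against low cells from 0 to 1, and that of the low minus negative interaction from 0 to 1, with 2 in a fit of only the groups compared. Over all genes that interaction had 291 calls in the latter fit and 186 in the main fit. The replicate block moved no other count of the 34 genes by over 1.5 times. In tamoxifen against control the replicate numbers are shared in name only: deviations of same-numbered samples correlated from -0.18 to 0.18. Over single genes, 177 of the values without 1 array and 50 of those under other settings lost their call, 48 and 43 gained one, and none of these changed direction at a call. In low cells Nop56 lost its call when its 3 rows were averaged, 2 of which lie mostly at background (adjusted p = 0.352), and Gnl3 and Polr1c lost theirs after cyclic loess. Counts of the other lists under these settings, and the medians and every-array counts without single arrays, were computed after the data were seen. The cause of these shifts was not tested.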

Other observations

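Some rows for these genes did not enter the tests. The row that Fbl shares with Tulp4 differed between tamoxifen and control by 0.56, 0.86 and 0.05 in high, low and negative cells, and the row that Tsr1 shares with Srr by -0.59, 0.18 and 0.17. Nop56 has 3 rows of its own: the brightest, used above, gave 0.71, 1.25 and 0.51, and the others 0.22, 0.08 and -0.10, and -0.84, -0.24 and -0.75. These 2 other rows had group means of 3.264 to 3.49 and of 2.73 to 4.84, under the background level of 4.16 in all 6 and in 5 of 6 groups, so their differences carry no direction. The second row of Ddx21 gave 0.79, 1.08 and 0.60, that of Bms1 0.20, 0.40 and 0.09, and that of Npm1 0.19, 0.30 and -0.28.

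Over the 21 arrays, which fall into 6 groups and so share the group differences, the genes outside the list whose levels followed Myc most closely were Tomm70a (Pearson r = 0.96), Aatf (0.95), Gtpbp4 (0.95), Cd2ap (0.95) and Gpatch4 (0.94). Within the list the values ran from 0.29 for Utp18 to 0.95 for Pes1, with a median of 0.87, against a median of -0.03 over all other genes. These values are descriptions, with no test.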
